A study of Mus musculus with 57 samples.

Results

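The 86 genes described here encode the mitochondrial respiratory chain and ATP synthase, with a few factors that assemble them, and were followed across 57 single cells from renal vesicles of newborn mouse kidneys. They were chosen by name: every gene of the deposited table whose symbol began with Nduf, Sdha to Sdhd, Uqcr, Cox4 to Cox8 or Atp5, which took 86 of 12087 genes. Of these, 76 encode subunits of the 5 complexes, 36 of complex I, 4 of complex II, 8 of complex III, 13 of complex IV and 15 of complex V. The others are the complex I assembly factors Ndufaf1 to Ndufaf4, the complex II assembly factors Sdhaf1 and Sdhaf2, the supercomplex factor Cox7a2l, and 3 genes whose old symbols take them into the rule, Atp5s, Atp5sl and Cox4nb. RefSeq now calls these Dmac2l, Dmac2 and Emc8, and Emc8 belongs to a membrane protein complex of the endoplasmic reticulum. Ndufa4 was counted with complex IV, of which it is a subunit despite its name.

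Cells came from Tg(Crym-EGFP)GF82Gsat mice, in which a transgene places EGFP under control of Crym, on a mixed background, at postnatal day 4, with sex not known. The kidneys, 1 pool of 2, were dissociated with trypsin and EGFP cells were sorted, caught singly on a Fluidigm C1 chip and sequenced after SMARTer amplification and Nextera XT library preparation. All cells belong to 1 group, so nothing was treated and cells are compared by state. Because they share 1 pool, cells are no replicates of a condition, and the values below are descriptions with no p-value.

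The respiratory chain sits in the inner mitochondrial membrane. Complexes I and II feed electrons from NADH and succinate into ubiquinone, complex III passes them to cytochrome c, and complex IV passes them to oxygen, while I, III and IV pump protons that drive ATP synthesis by complex V. Nephron progenitors are known for a largely glycolytic metabolism, and the mature proximal tubule is among the tissues richest in mitochondria. The renal vesicle lies between these stages as the first epithelial structure of the nephron. Subunits encoded in mitochondrial DNA were not analysed here.

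Levels are RPKM, reads scaled by transcript length and by the reads of the library, so they may be set side by side between genes. Detection of a gene meant an RPKM of at least 1. The steps between low values put the reads behind each library at 473000 to 2260000, with a median of 1460000. At that median 1 read gave a member between 0.138 and 2.17 RPKM, depending on its length, so that detection of a short gene can rest on a single read.

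Most respiratory chain genes were expressed at a high level in nearly every cell. Of the 86, 24 (27.9%) were detected in all 57 cells, against 306 (2.53%) of the 12087 genes. Detection in 50 or more cells was reached by 63 members (73.3%), against 947 genes (7.83%). The median of the members' median levels was 140 RPKM, against 0 over all genes, and 61 members (70.9%) had a mean of 100 RPKM or more, against 759 genes (6.28%). Only 9 members were detected in fewer than 29 cells, and 6 of these were assembly factors or the renamed Atp5s and Atp5sl, the others being Ndufs1, Cox4i2 and Cox6b2.

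Levels differed between complexes in the order V, IV, III, II and I. The median subunit of complex V had a median of 309 RPKM, that of complex IV 249.8 RPKM, of complex III 240.5 RPKM, of complex II 134.6 RPKM and of complex I 99.5 RPKM. Subunits within a complex spread far wider than the gap between complexes IV and III. Because complex I has the most subunits, it still made up 29.8% of all subunit RPKM in the median cell, level with 29.6% for complex V. Complex IV took 23.8%, complex III 11.7% and complex II 4.05%. Short transcripts tended to have higher RPKM, with a Spearman rho of -0.32 between level and transcript length over the 86 members and -0.35 over 9738 genes. Over the 76 subunits alone it was -0.17.

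**Figure D1:**
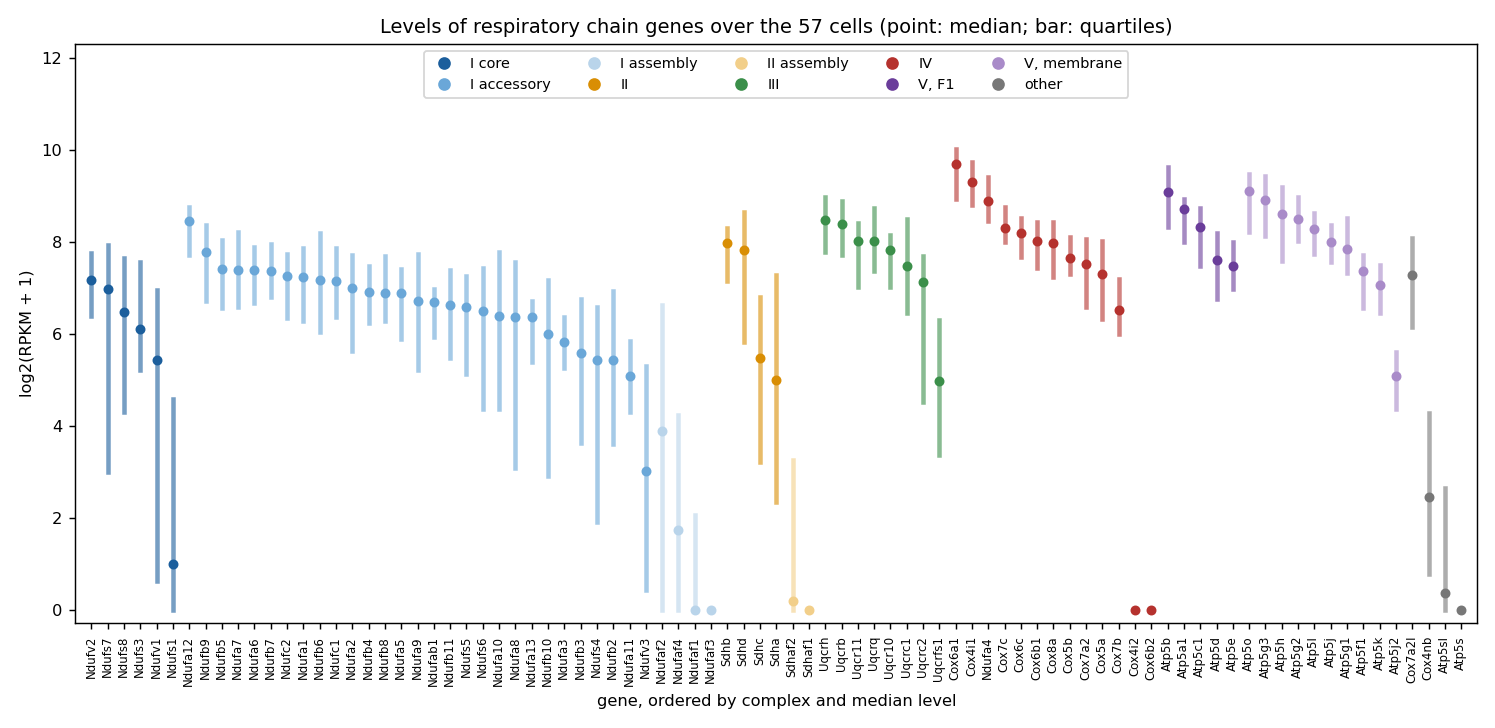
Level of 85 of the 86 genes as log2(RPKM + 1), grouped by complex and role and ordered by median within a group; points are medians over 57 cells and bars span the quartiles. Most subunits of complexes III, IV and V sit above those of the complex I core. Most assembly factors, Cox4i2 and Cox6b2 sit near 0, with the assembly factors Ndufaf2 and Ndufaf4 higher.

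Within complex I, which oxidises NADH, the 7 core subunits carry the flavin and iron-sulfur centres and the 29 accessory subunits surround them. The core was detected in fewer cells than the accessory subunits, in 28 to 55 cells with a median of 47, against 37 to 57 cells with a median of 54. The median level was 73.8 RPKM for core genes and 103 RPKM for accessory genes. Core transcripts were also longer, with a median of 1312 bases against 704 bases, and the part of length in the difference was not tested.

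Ndufv2, an iron-sulfur subunit of the NADH-oxidising arm, led the core with levels from 0 to 651.9 RPKM and a median of 143 RPKM. Ndufs7 and Ndufs8, which lie on the electron path near the ubiquinone site, had medians of 124.6 and 88.3 RPKM. Ndufv1, which binds NADH and FMN and lies on chromosome 19 at 4007505 to 4012725 (mm9), had a median of 42.3 RPKM and was detected in 38 cells. Ndufs1, the largest iron-sulfur subunit, on chromosome 1 at 63190166 to 63223396 (build mm9), was detected in only 28 of 57 cells (49.1%, exact Clopper-Pearson 95% interval 35.6 to 62.7%), with a median of 0.997 RPKM and a highest value of 214.6 RPKM. The core medians thus ran from 0.997 to 143 RPKM, within a complex whose core subunits are present in equal numbers.

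Among accessory subunits, Ndufa12 was the highest, with levels from 0 to 1090 RPKM and a median of 346.2 RPKM. Ndufb9, Ndufb5 and Ndufa7 followed with medians of 218.2, 169.1 and 166.4 RPKM. Ndufv3 was detected in the fewest cells, 37, with a median of 7.13 RPKM. The assembly factors were far lower. Ndufaf2 had a median of 13.8 RPKM in 37 cells and Ndufaf4 2.29 RPKM in 32 cells, while the medians of Ndufaf1 and Ndufaf3 were 0, with detection in 18 and 14 cells.

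Complex II, which is also the succinate dehydrogenase of the citric acid cycle, was uneven. The iron-sulfur subunit Sdhb ranged from 0 to 676.7 RPKM with a median of 251.5 RPKM, and the membrane anchor Sdhd from 0 to 1122 RPKM with a median of 225.8 RPKM, each in 52 cells. The flavoprotein Sdha, on chromosome 13 at 74459703 to 74487688 (mm9), had a median of 30.9 RPKM and the other anchor Sdhc one of 43.4 RPKM, each in 46 cells. The assembly factors Sdhaf1 and Sdhaf2 were detected in 8 and 23 cells.

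Complex III was carried by its small subunits. Uqcrh, the hinge protein, had a median of 353.1 RPKM, Uqcrb 332.1 RPKM, Uqcr11 259.5 RPKM and Uqcrq 257.7 RPKM. The large core proteins Uqcrc1 and Uqcrc2 had medians of 177.5 and 139.1 RPKM, and Uqcrc2 was detected in 51 cells, the fewest of the complex. The Rieske iron-sulfur protein gene Uqcrfs1 was the lowest, with a median of 30.3 RPKM in 52 cells.

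Complex IV, cytochrome c oxidase, held the highest member of all. Cox6a1, the ubiquitous isoform of subunit VIa, on chromosome 5 at 115795663 to 115798964 (mm9), ranged from 122.6 to 2581 RPKM with a median of 822.8 RPKM and was detected in every cell. Cox4i1 ranged from 3.01 to 1323 RPKM with a median of 629.8 RPKM, Ndufa4 from 116.1 to 1496 RPKM with a median of 474 RPKM, and Cox7c from 96.5 to 1134 RPKM with a median of 315.2 RPKM. All 4 were detected in all 57 cells.

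Isoform pairs of complex IV were strongly one-sided. Cox4i2, on chromosome 2 at 152579909 to 152590773 (mm9), an isoform of subunit IV known from oxygen-sensing and lung cells, was detected in 10 of 57 cells (17.5%, interval 8.75 to 29.9%) and in no cell exceeded Cox4i1. Its highest value was 227.7 RPKM in a cell with Wt1. Cox6b2, an isoform known from testis, was also detected in 10 cells, reached at most 122.5 RPKM and in no cell exceeded Cox6b1, whose median was 258 RPKM in 57 cells. The intervals cover counting of cells only.

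The upstream sequences of Cox6a1, the highest member, and of the pair Cox6b1 and Cox6b2, broadly detected against rarely detected, are shown because they differ in motifs known from nuclear genes of the respiratory chain. Each is the run of 250 bases before the RefSeq start, 5′ to 3′ on the strand of the gene, from RefSeq on build GRCm38.p6. Capitals mark matches on either strand to the core of the NRF1 site (GCGCA, then any base, then GCGC) or to CCGGAAG, an ETS-type site.
Cox6a1, chr5:115348959-115349208, minus strand: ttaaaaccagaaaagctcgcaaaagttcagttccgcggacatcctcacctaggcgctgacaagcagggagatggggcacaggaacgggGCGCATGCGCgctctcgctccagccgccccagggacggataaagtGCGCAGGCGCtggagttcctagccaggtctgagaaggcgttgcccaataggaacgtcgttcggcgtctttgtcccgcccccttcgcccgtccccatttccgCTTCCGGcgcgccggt
Cox6b1, chr7:30626115-30626364, minus strand: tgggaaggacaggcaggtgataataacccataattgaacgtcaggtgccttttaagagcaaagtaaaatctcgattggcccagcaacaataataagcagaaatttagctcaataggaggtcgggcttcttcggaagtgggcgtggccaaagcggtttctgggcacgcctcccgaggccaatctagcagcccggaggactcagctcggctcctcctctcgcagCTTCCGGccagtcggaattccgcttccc
Cox6b2, chr7:4753095-4753344, minus strand: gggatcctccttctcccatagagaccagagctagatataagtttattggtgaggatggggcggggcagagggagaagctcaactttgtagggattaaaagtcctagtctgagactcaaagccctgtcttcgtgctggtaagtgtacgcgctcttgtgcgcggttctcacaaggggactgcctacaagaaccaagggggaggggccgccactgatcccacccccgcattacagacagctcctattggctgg

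The Cox6a1 window held 2 NRF1 matches and 1 ETS match, the Cox6b1 window 1 ETS match and no NRF1 match, and the Cox6b2 window neither. Among the 73 members with a promoter entry, 14 (19.2%) held the NRF1 letters, against 10.4% of 8034 genes of the filtered table and 4.23% of all 27025 promoters of that length. The ETS letters stood in 14 members (19.2%), against 17.3% of the filtered genes and 7.83% of all promoters. AAGATGGCG, the YY1 letters, stood in 2 members (2.74%), against 1.59% and 0.71%. The GC box GGGCGG was in 42.5% of members, against 65.7% and 35.4%, and CCAAT in 45.2%, against 41.5% and 37.5%. Atp5h, Cox6a1 and Sdhd held both the NRF1 and the ETS letters. The 25 members with either had a median level of 143 RPKM and the 48 without either 133 RPKM. For the NRF1 letters alone the order was reversed, with 117 RPKM in the 14 members with them and 143 RPKM in the 59 without. A match describes letters and is not a site of binding.

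Complex V makes ATP. In its catalytic F1 part, Atp5b, the beta subunit, ranged from 17.3 to 1617 RPKM with a median of 544.3 RPKM, and Atp5a1, the alpha subunit, from 3.29 to 878.7 RPKM with a median of 418.2 RPKM. Atp5c1, of the central stalk, had a median of 317.2 RPKM, and Atp5d one of 194.5 RPKM in 54 cells. In the membrane part and peripheral stalk, Atp5o led with a median of 551.1 RPKM, followed by Atp5g3 at 478.7, Atp5h at 386.7 and Atp5g2 at 358.1 RPKM. Of these 15 genes 12 were detected in all 57 cells, and Atp5j2, a small membrane subunit, was lowest with a median of 32.8 RPKM.

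The c ring that turns in the membrane is encoded by 3 genes with the same mature protein, Atp5g1, Atp5g2 and Atp5g3. In the median cell Atp5g3 gave 41.4% of their sum, Atp5g2 35.5% and Atp5g1 23%. The mix varied widely between cells, with Atp5g3 at 4.76 to 80% and Atp5g2 at 0.499 to 73.9%. Atp5g3 was the highest of the 3 in 29 cells, Atp5g2 in 22 and Atp5g1 in 6.

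Some values may hold reads of other loci. Of the 86 members, 41 share at least 100 bases at 95% identity or more with a transcript of another annotated locus. For 23 members such a locus is an annotated pseudogene, among them Atp5l, Atp5h, Cox7c, Uqcrb and Ndufa12. The sources used here do not say how reads of such shared stretches were counted. A further limit holds for 8 members that overlap another listed gene, among them Ndufb11 with Rbm10 and Atp5f1 with Wdr77, since the libraries keep no strand.

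Cell-to-cell variation was low for the level of expression. Among genes with a mean of 100 RPKM or more, the 61 members had a median coefficient of variation of 68.2%, against 86.6% over the 759 genes, and 47 of the 61 lay below that median of all 759. Their median mean level was 202 RPKM, against 183 RPKM over the 759 genes. Cox6c was the steadiest member, with a coefficient of 44.6% around 292.5 ± 130.5 RPKM (SD over 57 cells). Complex IV subunits had a median coefficient of 57.1%, the F1 part 62.3%, complex III 70.6%, accessory complex I subunits 82.4%, complex II 104% and the complex I core 113%.

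**Figure D2:**
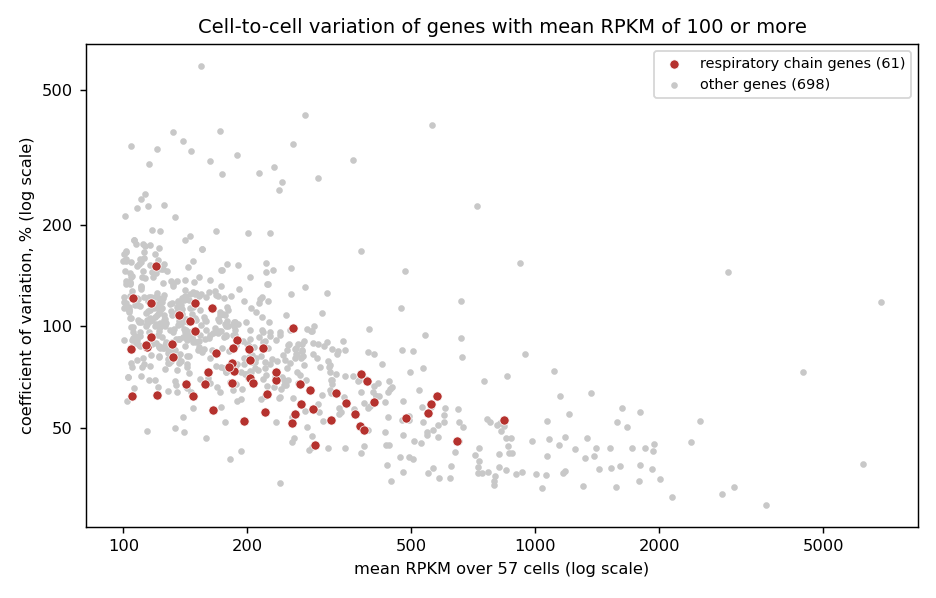
Coefficient of variation in percent against mean RPKM over 57 cells, both on log scales, for the 759 genes with a mean of 100 RPKM or more; red points are the 61 respiratory chain genes and grey points the other genes. Most red points lie in the lower part of the cloud, 47 of 61 below the overall median of 86.6%.

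Summed over all 86 genes the level varied less between cells than that of any single member. A sum over many genes that vary almost independently does so in general, and no sum over other genes was set beside it. The sum ranged from 10542 RPKM in cell 25 to 26356 RPKM in cell 44, with a median of 16495 RPKM and a coefficient of variation of 15.9%, a 2.5-fold range. As a share of all listed RPKM it was 2.52 to 5.53%, with a median of 3.79%. Complex sums varied more, with coefficients of 20.2% for complex I, 20.6% for V, 24.6% for IV, 32.6% for III and 52.8% for II.

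Single members, by contrast, varied almost independently. The mean Spearman rho over all pairs of members was 0.025 across 57 cells and 0.018 across the 50 nephron cells. For the 10083 genes with a mean of 1 RPKM or more and detection in 5 or more cells it was 0.025 across 57 cells. Within the 759 highly expressed genes it was 0.037, against 0.031 for the 61 members among them. The 16 G2/M genes read in the same way gave 0.52, so shared variation was visible in these libraries where it was large. Across nephron cells the 759 genes had 0.025 and the 61 members 0.027. With the number of detected genes removed from the ranks, they had 0.024 and 0.030 across 57 cells. The 10083 genes then had 0.0025 and the 86 members 0.021. These differences were not tested. Of the 3655 pairs of members, 90 (2.46%) had a rho of 0.3 or more in nephron cells, against 4.14% of the pairs of highly expressed genes. The highest was 0.50 for Cox4nb with Ndufb10, followed by 0.46 for Uqcr11 with Atp5h, pairs chosen after their values were seen.

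Complex sums moved together somewhat more. In nephron cells rho was 0.47 between complexes IV and V, 0.42 between I and IV and 0.32 between III and IV. It was 0.23 between I and III, 0.21 between I and V and 0.15 between III and V. Sums of complex II had a rho between -0.03 and 0.17 with the others. All of these values come from the same libraries and share each cell's depth. They also share each cell's total of listed RPKM. With that total the sums of complexes I, III, IV and V had a rho of 0.50, 0.39, 0.46 and 0.34 in nephron cells, and complex II one of -0.08. The part of this total in the values between complexes was not tested.

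How many members a cell showed followed how many other genes it showed, but their summed RPKM did not. Members detected per cell ranged from 58 in cell 30, the library of fewest reads, to 83, with a median of 75, while the other genes detected ranged from 2745 to 6419. Between both numbers the rho was 0.80 over 57 cells and 0.87 over nephron cells. The summed RPKM of the members had a rho of -0.10 with the number of detected genes over 57 cells and -0.19 over nephron cells. Its rho with estimated reads was -0.003, against 0.43 for members detected. RPKM is already scaled by the reads of the library, so this contrast says little about the members. The members' mean log2(RPKM + 1) had a rho of 0.72 with detected genes over 57 cells and 0.75 over nephron cells.

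**Figure D3:**
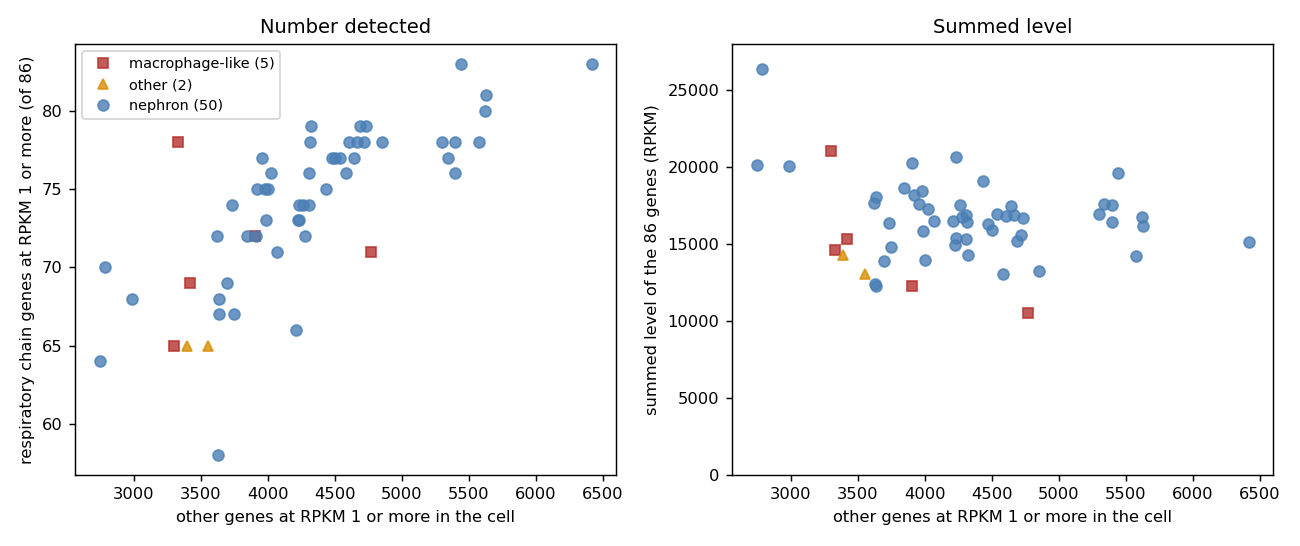
Members detected per cell (left, of 86) and their summed level in RPKM (right) against the number of other genes detected, 1 point per cell, with macrophage-like cells as squares, the other 2 cells as triangles and nephron cells as circles. The left cloud climbs while the right one stays between 10542 and 26356 RPKM with no slope upwards.

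Gene by gene, fewer members than genes at large followed the number of detected genes. Over 57 cells, 5 members (5.81%) had a rho of 0.3 or more with the number of detected genes, against 17.6% of all tested genes, and 1 member (1.16%) one of -0.3 or less, against 0.407%. Ndufa12 had the highest rho, 0.49, followed by Ndufaf4 at 0.39, Sdhc at 0.31, Atp5b at 0.30 and Cox4nb at 0.30. The lowest were Ndufa6 at -0.32, Ndufb11 at -0.24 and Atp5s at -0.23. Over the 50 nephron cells 6 members (6.98%) reached 0.3, against 16.6% of genes, and none reached -0.3, against 0.298%.

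Nephron cells above their median of 4292.5 detected genes (25 cells) were then set against those at or below it (25 cells). A difference of 1 or more in mean log2(RPKM + 1) is called past the fold here and in all comparisons of states. Upwards, 16 members (18.6%) were past the fold, against 19% of all tested genes, and downwards none was, against 0.843%. The share of members was near that of all genes. Among genes with a mean of 100 RPKM or more, 11 of 61 members (18%) were past the fold upwards, against 28.5%. By role, the 16 members held 4 of 7 core and 8 of 29 accessory complex I genes and 2 of 4 complex I assembly factors. They also held 1 of 8 genes of complex III and none of complexes II, IV and V. The 16th was Cox4nb.

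Ndufs7 had 0 to 606.2 RPKM, median 155.9, in cells with more genes and 0 to 734.1 RPKM, median 8.59, in cells with fewer, a difference of 2.42. The ranges overlapped widely, and the gene was detected in 23 of 25 against 17 of 25 cells. Ndufaf2 differed by 2.29, Ndufa8 by 2.18 and Ndufa9 by 2.01. On the log of the arithmetic mean, a scale added after seeing the data, Ndufs7 differed by 0.46, Ndufa8 by 0.72 and Ndufa9 by 0.28, short of the fold, and Ndufaf2 by 1.10.

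Detection and mean level ran apart over the members. In cells with more genes 50 of the 86 were detected in more cells and 2 in fewer, while 53 had the lower mean RPKM. In the median cell the median detected member had 156 RPKM in cells with more genes and 181 RPKM in cells with fewer. The summed level ranged from 13079 to 19596 RPKM with a median of 16448 in cells with more genes, and from 12288 to 26356 RPKM with a median of 17296 in cells with fewer. Cells with more genes also had more reads, with a median of 1570000 against 1300000, and the part of depth in these values was not tested.

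States were then read from genes outside the chain. In 50 cells Pax8, a nephron lineage factor, stood at 5 RPKM or more with C1qb, a macrophage complement gene, below 1000 RPKM. Another 5 cells had C1qb at 1000 RPKM or more and are called macrophage-like. The remaining 2, cells 13 and 53, had low Pax8 and summed stromal markers of 971 and 1156 RPKM. In nephron cells the stromal markers summed to 0.0685 to 1782 RPKM with a median of 114 RPKM, a range that holds both of these sums. The 10 macrophage markers, C1qb included, summed to 8423 to 18580 RPKM in the macrophage-like cells and to 0 to 180 RPKM in nephron cells. The 10 nephron markers, Pax8 included, summed to 9.95 to 85.4 RPKM in macrophage-like cells and 240 to 2649 RPKM in nephron cells. Since C1qb and Pax8 define these states, part of both separations was set by the definition. No endothelial marker with values, of 3, was detected in a macrophage-like cell.

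The 5 macrophage-like cells had summed member levels of 15335, 10542, 14606, 21048 and 12248 RPKM in cells 1, 25, 35, 46 and 58, against 12288 to 26356 RPKM with a median of 16703 in nephron cells. All but cells 25 and 58 lay within the nephron range. Complex V was the lowest relative to nephron cells, at 2803, 2684, 2680, 5735 and 3764 RPKM in the same order, against 3191 to 6789 RPKM with a median of 4816 in nephron cells. Cells 1, 25 and 35 lay below every nephron cell. Complex I had a median of 4615 RPKM in macrophage-like cells and 4732 RPKM in nephron cells, and complex IV 3333 against 3868 RPKM.

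**Figure D4:**
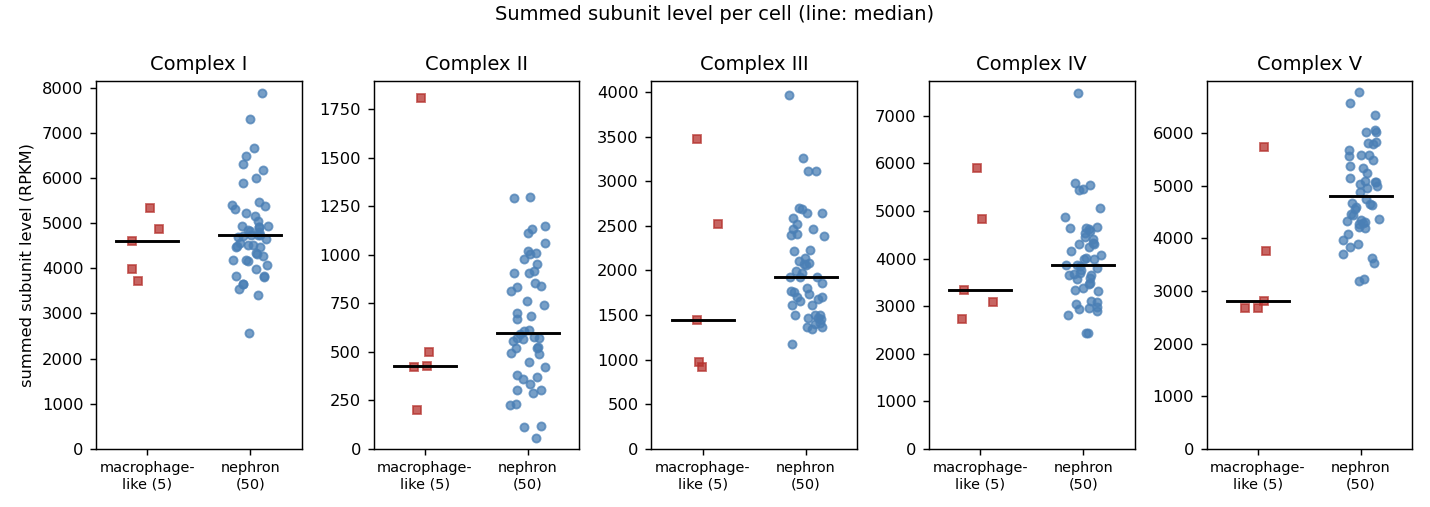
Summed subunit level per cell in RPKM for each complex, in 5 macrophage-like cells (red squares) and 50 nephron cells (blue circles), with lines at medians. For complex V 3 of the 5 macrophage-like cells lie below all nephron cells, and for complex II cell 35 lies above all of them.

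Gene by gene, 26 members (30.2%) were past the fold downwards in macrophage-like cells, against 29.3% of all tested genes, and 5 (5.81%) upwards, against 14.1%. The count of lower members was thus near that of all genes. Among genes with a mean of 100 RPKM or more, 17 of 61 members (27.9%) were lower, against 49.7%, and 2 (3.28%) higher, against 14.4%. That mean is taken over all cells, 50 of 57 of them nephron cells. The median difference was -0.34 over the 86 members and -0.50 over all tested genes. Of the 26 lower members 15 stayed past the fold whichever of the 5 macrophage-like cells was left out, as did 2 of the 5 higher ones, a count chosen after seeing the data.

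Genes of stress and of the cell cycle differed in the same comparison. Of 8 immediate early genes, which respond within minutes to stimulation or to dissociation, 7 were past the fold upwards in macrophage-like cells and none downwards, with a median difference of 2.00. Of 16 G2/M genes 10 were lower and none higher, and of 14 S phase genes 7 were lower and 1 higher. Their part in the differences of the members was not tested.

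In complex III 4 of 8 members were lower and none higher, with a median difference of -0.80 over the 8. Uqcrh had 0, 4.98, 170.9, 495.6 and 44.2 RPKM in the macrophage-like cells, against 19.3 to 1268 RPKM with a median of 369 in nephron cells, a difference of -3.49 that became -2.26 without cell 1. Uqcrc1, a core protein, had 0, 17.5, 45.5, 0.436 and 130 RPKM, against 0.593 to 632.7 RPKM with a median of 187.3 in nephron cells, a difference of -3.47. Uqcrfs1 differed by -3.02, with at most 25.4 RPKM in a macrophage-like cell. The fourth, Uqcrc2, differed by -1.21, and by -2.37 to 0.02 with 1 cell left out. Cells 1 and 25 lay below every nephron cell for Uqcrh and cells 1 and 46 for Uqcrc1, while the other cells overlapped with the nephron range.

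In complex I the core genes split. Ndufv1 had 0, 0, 0, 0.918 and 1.28 RPKM in macrophage-like cells, against 0 to 693.9 RPKM with a median of 55.5 and detection in 35 of 50 nephron cells, a difference of -4.28. Ndufs7 had 32.9, 268.8, 248.2, 375.1 and 82.3 RPKM, against 0 to 734.1 RPKM with a median of 122.7 in nephron cells, a difference of 1.90. On the log of the arithmetic mean Ndufs7 differed by 0.31. Among accessory genes Ndufb11 differed by -3.26, Ndufv3 by 1.95 and Ndufb2 by 1.17, with 8 of 29 lower and 2 higher. Single cells weighed on both higher ones, with Ndufb2 at 0.68 without cell 1 and 0.79 without cell 35, and Ndufv3 at 1.23 without cell 46 and 3.16 without cell 25. Values in nephron cells spanned those of the macrophage-like cells for each.

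Complex IV had no member lower by the fold and 1 of 13 higher, Cox5a, with 157.4, 247.4, 96, 574.5 and 373.5 RPKM, against 0 to 564 RPKM with a median of 155.6 in nephron cells, a difference of 1.10. Cell 46 lay above every nephron cell for Cox5a, which fell short of the fold at 0.78 without cell 46 and at 0.94 without cell 58. In complex V 3 of 5 F1 genes and 3 of 10 membrane and stalk genes were lower, with Atp5b at 176.8, 399.1, 17.3, 43 and 740.3 RPKM, against 76.6 to 1617 RPKM with a median of 566.9 in nephron cells. Cells 35 and 46 lay below every nephron cell for Atp5b. Of these 6 lower genes, Atp5b and Atp5o stayed past the fold with any 1 macrophage-like cell left out, and Atp5a1, Atp5d, Atp5h and Atp5j did not. In complex II Sdha and Sdhc were lower, by -2.57 and -1.73. Atp5s differed by 1.37, but that rests on 214.4 RPKM in cell 35 and became -0.12 without it. Counts of higher members were also set by single cells, 10 without cell 25 and 8 without cell 46.

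Other mitochondrial lists differed among themselves. In macrophage-like cells 10 of 13 citric acid cycle genes and 17 of 30 genes of the mitochondrial ribosome were past the fold downwards and none upwards, beside the 29.3% of all tested genes. Of 8 carriers and partners 3 were lower and 1 higher, of 20 further assembly factors 1 was lower and 1 higher, and of 12 regulators tested 1 was lower and none higher. Macrophage-like cells showed 3298 to 4768 detected genes and 767000 to 1400000 reads, against 2745 to 6419 genes and 473000 to 2260000 reads in nephron cells, and the part of these in the differences was not tested.

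Among nephron cells, 24 had Ccnb1, the cyclin of entry into mitosis, at 20 RPKM or more and 26 below, with 2 cells between 10 and 40 RPKM. All 16 G2/M genes, Ccnb1 included, were past the fold upwards in the Ccnb1-high cells. Of the members 11 (12.8%) were past the fold upwards, against 12.9% of all tested genes, and none downwards, against 1.88%. The summed level had a median of 16239 RPKM in Ccnb1-high cells and 16941 RPKM in Ccnb1-low cells, with ranges of 13079 to 26356 and 12288 to 20265 RPKM. The share of members past the fold was near that of all genes. Among genes with a mean of 100 RPKM or more, 6 of 61 members (9.84%) were higher, against 16.6%, and none lower, against 1.45%.

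The 11 higher genes comprised 4 of 7 core genes of complex I, 4 of its 29 accessory subunits, 2 of its 4 assembly factors and Atp5sl. The core had a median difference of 1.16, against 0.30 over the 86 members and 0.22 over all tested genes. Ndufv1 had 0 to 693.9 RPKM with a median of 77.8 in Ccnb1-high cells and 0 to 518.1 RPKM with a median of 0.741 in Ccnb1-low cells, a difference of 2.83. It was detected in 23 of 24 against 12 of 26 cells. Ndufs1, detected in 14 of 24 against 12 of 26 cells, differed by 1.32, Ndufs3 by 1.28 and Ndufs7 by 1.16. Ndufa9, an accessory subunit, differed by 2.19 and the assembly factors Ndufaf2 and Ndufaf3 by 2.15 and 1.37. No subunit of complexes II, III, IV or V passed the fold. On the log of the arithmetic mean Ndufv1 differed by 0.90, Ndufa9 by 0.84 and Ndufaf3 by 0.64, short of the fold, and at state thresholds of 50 Ndufaf3 differed by 0.75.

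Ccnb1-high cells also showed more genes, with a median of 4678 against 3992.5 in Ccnb1-low cells. Within cells above the median number of detected genes (18 Ccnb1-high and 7 Ccnb1-low cells) the core median was 0.34 with 2 of 7 core genes past the fold, and Ndufv1 differed by 1.70. Within cells at or below it (6 and 19 cells) the core median was 1.01 with 4 of 7 past the fold, and Ndufv1 differed by 4.56. Over all members 9.3% and 24.4% were past the fold upwards in these sets of cells, against 14.9% and 15.9% of all tested genes. Downwards it was 4.65% and 14%, against 10.3% and 12.7%. The sizes of the groups differ between these sets too, and the part of the number of detected genes was not tested.

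**Figure D5:**
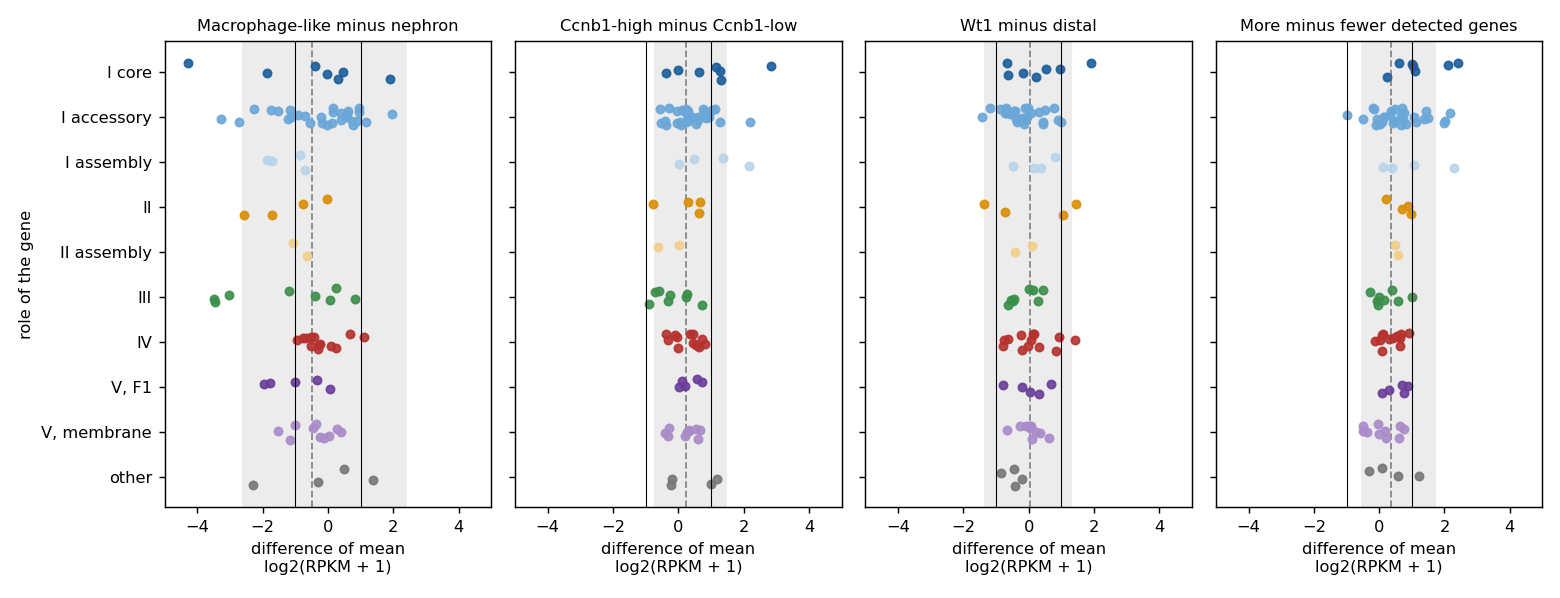
Difference of mean log2(RPKM + 1) for each of the 86 genes in 4 comparisons, 1 row per role; black lines mark differences of -1 and 1, the dashed line the median of all tested genes and the grey band their 5th to 95th percentile. Complex I and complex III genes spread widest in the left panel, and most points lie inside the band in all panels.

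Along the proximal to distal axis of the vesicle, 33 nephron cells had Wt1, a factor of the proximal, podocyte-forming end, at 20 RPKM or more with Sox9 and Pou3f3 below it. Another 12 cells had Sox9 or Pou3f3, of the distal end, at 20 RPKM or more with Wt1 below it. Few members differed. Upwards 5 members (5.81%) were past the fold in Wt1 cells, against 8.72% of tested genes, and downwards 3 (3.49%), against 9.64%. These counts are small and moved with the settings. At state thresholds of 50, 8 members (9.3%) were lower, against 13% of tested genes, and with a pseudocount of 0.1, 9 (10.5%) were higher and 7 (8.14%) lower, against 19.6% and 18% of tested genes. Among genes with a mean of 100 RPKM or more, 1 of 61 members (1.64%) was higher and 1 lower, against 8.83% and 9.75%. The differences between members and genes at large were not tested. Of 14 S phase genes 8 were higher in Wt1 cells and none lower, and of 16 G2/M genes 3 were lower and none higher, and their part was not tested. Summed levels were 12288 to 26356 RPKM with a median of 16672 in Wt1 cells and 13235 to 20625 RPKM with a median of 16574 in distal cells.

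Complex II genes differed in both directions along this axis. Sdha had 0 to 391.9 RPKM with a median of 40.7 in Wt1 cells and 0.321 to 265.1 RPKM with a median of 7.01 in distal cells, a difference of 1.45. Sdhc differed by 1.04 and Sdhd by -1.37, with a median of 154.9 RPKM in Wt1 cells and 325.4 RPKM in distal cells. The summed level of complex II had a median of 591 RPKM in Wt1 cells and 753 RPKM in distal cells. All of these ranges overlapped. Sdhc fell short of the fold at other state thresholds, 0.73 at 5 and 0.53 at 50 RPKM. On the log of the arithmetic mean Sdha differed by 0.82, Sdhc by 0.87 and Sdhd by -0.67, all short of it.

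The other genes past the fold belonged mostly to complex I. Ndufs1 differed by 1.89, with detection in 19 of 33 Wt1 cells and 3 of 12 distal cells, but by 0.72 at state thresholds of 50. Ndufa10 differed by 1.00, while Ndufv3 and Ndufb10 differed by -1.42 and -1.18. Cox4i2 was detected in 9 of 33 Wt1 cells (27.3%, exact Clopper-Pearson interval 13.3 to 45.5%) at 6.84 to 227.7 RPKM and in 0 of 12 distal cells, a count that allows a share of up to 26.5% by the same interval, or 25% as 3 counts of 12. It was also at 0 in all 5 macrophage-like cells. The intervals overlap, and the difference was not tested.

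A smaller table deposited by the authors lists 787 genes in 28 cells, with a fold that is positive towards a proximal class and negative towards a distal one. It holds 4 of the 86 members (4.65%), against 6.51% of all genes. In the authors' deposited table Sdha has a fold of 5.37, Ndufb5 of 2.62 and Cox8a of 1.89, on the proximal side, and Ndufb11 one of -2.83, on the distal side. The differences between Wt1 and distal cells above were 1.45, 0.79, 0.84 and -0.74 for these genes in the same order. The 28 cells are among the 57, so both sets of values come from the same libraries.

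Other genes of mitochondrial metabolism were read beside the chain. The 8 carriers and partners, cytochrome c, the adenine nucleotide and phosphate carriers, the ATPase inhibitor and the porins, were all detected in 50 or more cells, led by Slc25a5 with a median of 1032 RPKM, Slc25a4 with 420.4 RPKM and Atpif1 with 280.2 RPKM. Citric acid cycle genes were detected in a median of 41 cells, with Mdh2 highest at a median of 380.1 RPKM, Cs and Idh3g next at 66.2 and 65.5 RPKM, and Dlst in the fewest cells, 30. Of the mitochondrial ribosome the 30 genes were detected in a median of 35 cells, led by Mrpl18, Mrpl20 and Mrps21 at medians of 172.4, 149.4 and 99.3 RPKM, with Mrps2 in the fewest, 22. Glycolytic genes, 16 with values, had a median of 44 cells, with Gapdh at a median of 1267 RPKM in all cells, Ldhb at 377.7 RPKM, Pgk1 at 235.9 RPKM and Aldoc in 3 cells.

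Assembly and regulation were low throughout. Of 20 further assembly factors with values, Cox17, a copper chaperone, had a median of 33.4 RPKM in 46 cells, Cox16 and Cox10 had 1.14 and 0.261 RPKM, Lyrm7 was detected in 5 cells, and the list had a median of 15 cells. Of 13 regulators Tfam, which packages mitochondrial DNA, was detected in 39 cells with a median of 6.39 RPKM, Yy1 in 33, Tfb2m in 24 and Esrra in 3. Hypoxia genes, 6 with values, had a median of 7 cells, with Vegfa in 32 and Ankrd37 in 3.

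The genes whose levels ran most like the members were sought among 3313 genes detected in at least 29 cells, as the Spearman rho with the members' mean log2(RPKM + 1) over 50 nephron cells. The highest were Fdps at 0.57, Seh1l at 0.56, Phgdh at 0.55, Mrpl54 at 0.53, Dctn3 at 0.53, Lamtor2 at 0.52, Shcbp1 at 0.52, Nsfl1c at 0.50, Lsm12 at 0.49 and Ppia at 0.49. With the number of detected genes removed from the ranks these became 0.16 for Lsm12 to 0.46 for Phgdh. Of the lists, the mitochondrial ribosome had the highest rho with the members, 0.73, or 0.39 with detected genes removed, and its summed RPKM had a rho of 0.06 with the members' sum.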

How the data were processed

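The authors deposited 1 table of RPKM values for 12087 genes in 57 cells, per the file headers, each gene above RPKM 3 in at least 2 cells. A second deposited table has RPKM of 787 genes in 28 cells and a signed fold, read here as a score of the authors, per the file headers. TopHat 1.4.1, DESeq and build mm9 are listed by the submitters' processing notes, with no role stated. No column of cell values was left unmapped (0). RPKM are not counts, so no count model was fitted. Genes with mean RPKM of 1 or more in at least 5 cells (10083) form the tested background, and all 86 members passed. The members, gene lists and thresholds were chosen with earlier results of these data known. Named genes are the 4 highest and the rarest of each role, isoform pairs, and up to 5 past the fold each way in a comparison. A gene that this rule takes is not reported here. Reads per library were estimated from the steps between low values with transcript lengths of GENCODE vM21 for 7554 genes. Doublets were not called, since capture chambers had been inspected by microscope, per the labels' protocols. Pseudogene copies were searched with BLAST+ 2.17.0. Computation used Python 3.11.15, numpy 2.4.6, pandas 2.3.3 and scipy 1.17.1, and its functions were tested on simulated data.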

Additional observations from a re-analysis of the deposited data

Results flagged for a closer look

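Among the 5 macrophage-like cells, cell 35 stood apart from the others in 3 of 17 quantities examined, by a gap to its nearest neighbour above 0.71 of the whole range. Its summed complex II level was 1809 RPKM, against 199 to 498 RPKM in the other 4, with Sdhd at 1122 RPKM and Sdhb at 676.7 RPKM, and its gap was 0.81 of the range. For Ndufb11 it had 154.4 RPKM, against 0 to 43.6 RPKM in the other 4. For Atp5s it had 214.4 RPKM, against 0 to 1.52 RPKM. For normally distributed values chance flags about 1 in 20 groups of this size. RPKM of single cells are skewed and hold zeros, and the rate for such values is not known. No cause was tested.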

How the results depend on the processing

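No paired analysis was possible because all cells belong to 1 group and no comparison rests on a test. Of 383 values recomputed, which cover 27 differences of single members, 1 past the fold changed sign. This was Atp5s in macrophage-like cells, at -0.12 without cell 35 and up to 1.82 without another cell. Outside these 27, Uqcrc2 in macrophage-like cells went from -1.21 to as high as 0.02 with 1 cell left out. The difference in mean sum, smaller than the spread between cells, also changed sign, for Wt1 with 653 on rescaled cells beside -64.7 RPKM as deposited, and for Ccnb1 with 1329 RPKM within cells at or below the median of detected genes beside -475 RPKM over all nephron cells. Counts past the fold moved with most settings. At a pseudocount of 0.1 they were 9 higher for macrophage-like cells, 19 higher and 1 lower for Ccnb1, 9 higher and 7 lower for Wt1, and 27 higher and 1 lower for detected genes. At 10 they were 2, 3, 0 and 5 higher in the same order, with 1 lower for Wt1. On the log of the arithmetic mean, chosen after seeing the data, they were 3, 3, 2 and 3 higher, with 1 lower for Ccnb1 and 4 for detected genes. Rescaling each cell to the same total, TPM-like, gave a median sum of 37924, a difference in mean sum of -6340 for macrophage-like cells, 8 higher for Wt1 and 1 lower for detected genes. State thresholds of 5 gave 5 lower for Wt1, and thresholds of 50 gave 8 lower for Wt1 and 1 for Ccnb1. Leaving out each macrophage-like cell gave 6 to 10 higher, 23 to 29 lower and a difference in mean sum of -3563 to -937. Within cells above the median of detected genes, also chosen later, 4 were lower for Ccnb1, and within the others 21 were higher and 12 lower. With detection above 0, 3 members had a rho of 0.3 or more. The causes were not tested. In all, 104 summary values moved little, among them all those with nephron cells alone. Little means less than the spread between cells, less than 0.1 for a rho or at most 1.5 times for a count. Values with no filter are counted among them but could not move, since all 86 members passed the filter. Without cell 44, chosen later, the difference in mean sum was -366 for Wt1, -904 for Ccnb1 and -581 for detected genes, the last against -962 with it. All cells come from 1 pool, so the spread between animals is not known, and low members are limited by depth, since 1 read of a short gene can exceed RPKM 1.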
